A study of Homo sapiens with 14 samples.

Results

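The cell cycle and DNA replication genes described here are 40 protein-coding genes chosen by symbol, from the cyclins that open the cycle to the motors of mitosis. Of these, 38 have a row of their own among the 21574 rows of the deposited expression table, and MCM7 and BUB1B appear only in rows shared with other genes. The series compares cells labelled HepG2, a liver carcinoma line, that received scrambled siRNA (control) with cells that received siADAR1 (KD) for 48 h at 20 µM, as the study's methods state. It holds 8 PARS-seq, 2 RNA-seq and 4 Ribo-seq libraries. PARS-seq cuts folded RNA in the tube with S1 nuclease at unpaired bases or with RNase V1 at paired bases, and Ribo-seq sequences the RNA held inside ribosomes. Values are RPKM (reads per length of transcript and depth of the library). The authors averaged the nuclease libraries of a replicate into 1 PARS-seq value, which leaves 2 values per condition. Ribo-seq also has 2 per condition, and RNA-seq has 1 per condition and no replicate check.

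A cell that commits to division first builds up cyclin D and cyclin E with their kinases, which release E2F transcription factors from the retinoblastoma protein. E2F then drives genes that load the MCM helicase on replication origins and that make deoxynucleotides. Later in the cycle, other factors switch on the cyclins, kinases, checkpoint proteins and motors that carry chromosomes through mitosis. Levels of these genes therefore follow the share of dividing cells in a culture. In bulk samples a smaller share of cells in a phase and less RNA per cell cannot be told apart.

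The siRNA target ADAR read 40.7 and 46.8 RPKM in the control samples of PARS-seq against 15.1 in both KD samples. Both KD values lay below both control values, and the log2 difference was −1.47 ± 0.17 (SE; limma, adjusted p = 0.0020). The RNA-seq libraries had 54.8 RPKM (control) and 15.4 RPKM (KD), and those of Ribo-seq 43.6 and 55.5 RPKM (control) and 8.73 and 44.0 RPKM (KD). The second Ribo-seq KD library thus lay just above the lower control value, and the condition groups of Ribo-seq overlapped for the target itself.

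The HepG2 label was set against liver markers. Of 9 hepatocyte markers, 8 have a row of their own, and the highest value of any of them in any sample was 0.0821 RPKM, for APOA1 in the RNA-seq control library. All 8, albumin and alpha-fetoprotein included, stood at 0 in every Ribo-seq library. The marker values therefore go against a hepatocyte-derived line, and the cells are called here the cells labelled HepG2. All 5 leukocyte markers stayed at or below 1.02 RPKM, with CD14 the most abundant, and the 4 endothelial markers at or below 0.517 RPKM, with CDH5 the most abundant.

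Of 6 fibroblast markers, 5 have a row. Their summed level was 24.1 and 32.2 RPKM in the control samples of PARS-seq and 18.1 and 20.3 in the KD samples, and 67.8 and 49.5 RPKM in the control and KD libraries of RNA-seq. In Ribo-seq the sum was 134 and 17.5 RPKM in control replicates 1 and 2, and 101 and 11.9 RPKM in KD replicates 1 and 2. COL1A1 was the most abundant of them over all samples. In PARS-seq, LUM read 1.41 and 1.07 RPKM in control against 0.296 and 0.173 RPKM after KD, PDGFRB 1.56 and 0.934 against 0.561 and 0.339 RPKM, and DCN 1.57 and 0.828 against 0.614 and 0.331 RPKM. In these 3, which did not reach the mean of 1 RPKM that the test asks for, and in COL1A1 (limma, adjusted p = 0.24) both KD samples lay below both control samples. The part of these markers in the members' PARS-seq differences was not tested. COL1A2 stayed at or below 0.123 RPKM. LUM made most of the gap between the Ribo-seq replicates, with 112 and 80.4 RPKM in the replicate 1 libraries and 0.284 and 0 RPKM in the replicate 2 libraries.

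The 38 members summed to 2512 and 2499 RPKM in the control samples of PARS-seq and to 2736 and 2758 RPKM in the KD samples. In RNA-seq the sum was 2305 RPKM in control and 2322 RPKM in KD. In RNA-seq control, thymidine kinase TK1 was the most abundant member per length at 216 RPKM, and the kinetochore motor CENPE the least at 0.476 RPKM. In PARS-seq, the replication clamp PCNA led with 501 and 427 RPKM in control.

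The first comparison asks which members changed with the knockdown in PARS-seq. The test was limma on log2(RPKM + 1), a scale that understates changes of low genes, over the 11153 genes with a mean of at least 1 RPKM, with a Benjamini-Hochberg adjusted p under 0.05 as the threshold for a call. All 38 members passed the filter. Of them 4 were called, all higher in KD, which is 10.5% of the members against 15.5% of all genes called in either direction. In the direction of the members' calls, 8.06% of all genes were called higher, and 7.43% were called lower against 0 of the members by limma. At an unadjusted p under 0.05 there were 8 members, all higher, or 21.1%, against 32.2% of all genes. The members' share lay below the background over both directions together and above it in the higher direction, where it rests on 4 members, and whether the shares differ was not tested.

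The members' median log2 difference in PARS-seq was 0.22, against 0.04 over all genes tested, and 31 of the 38 lay above 0, against 54.0% of all genes. Both KD samples lay above both control samples in 14 members, or 36.8%, against 33.3% of all genes. Both KD samples lay below both control samples in 3 members, CDC6, CCNB1 and CDC25C, or 7.89%, against 27.1% of all genes.

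**Figure D1:**
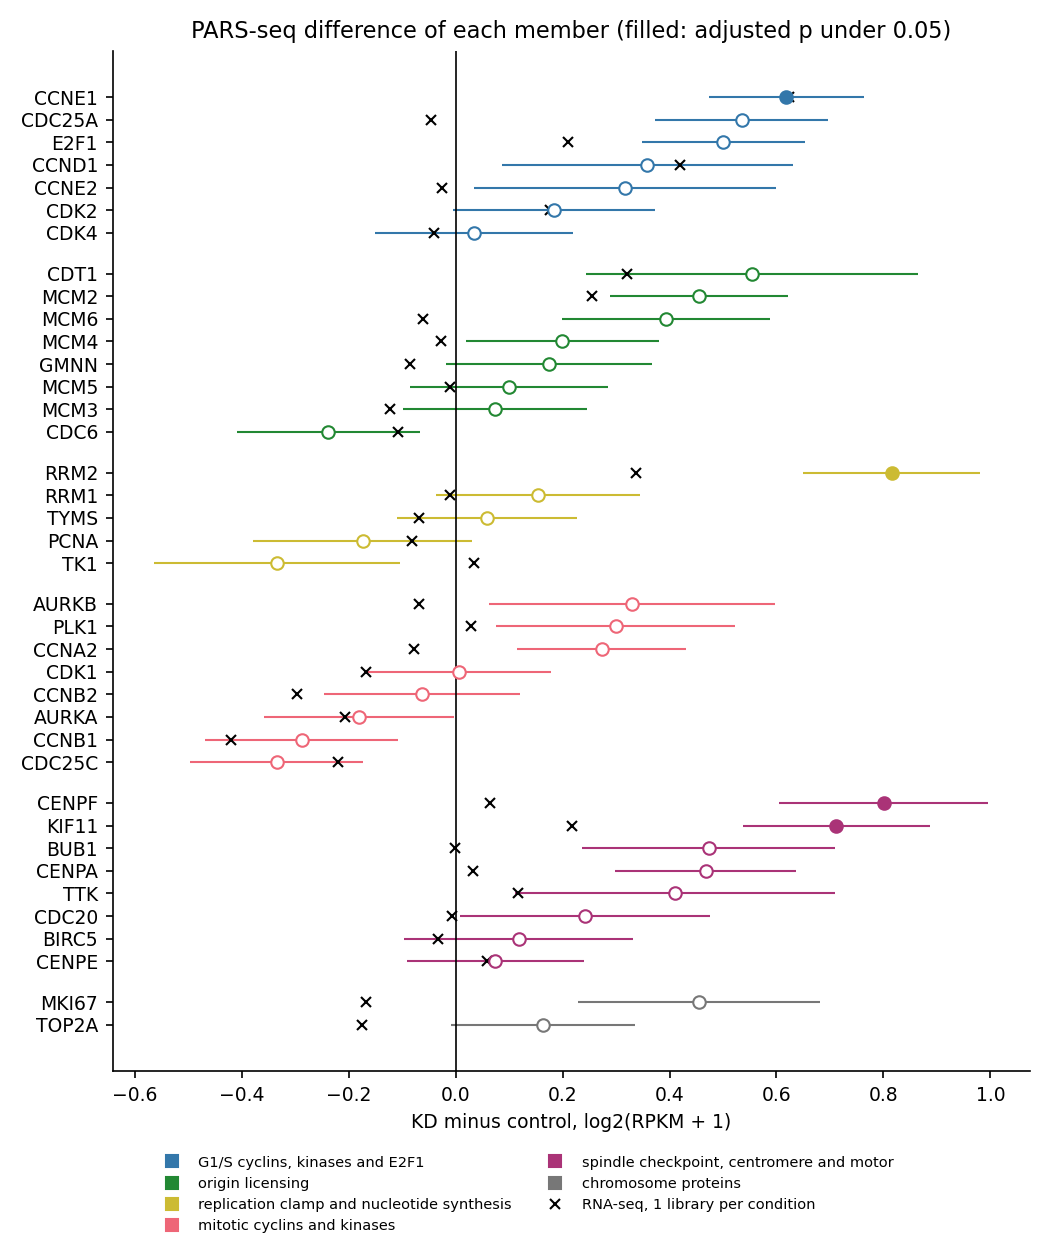
Each circle is the KD minus control difference of 1 member in PARS-seq on the log2(RPKM + 1) scale, with its SE from limma (2 samples per condition), grouped by role, and each cross is the RNA-seq difference between single libraries. Filled circles mark the 4 called members, and the members' median is 0.22 in PARS-seq and −0.03 in RNA-seq.

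The 4 called members come from 3 steps of the cycle: CCNE1 from the entry into S phase, RRM2 from nucleotide synthesis, and CENPF and KIF11 from mitosis. CCNE1, the E-type cyclin that activates CDK2, read 3.32 and 2.88 RPKM in the control samples of PARS-seq against 5.05 and 5.53 RPKM after KD. It is the lowest of the 4, and its groups did not overlap, with a log2 difference of 0.62 ± 0.15 (SE; limma, adjusted p = 0.027).

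RRM2, the cell-cycle-regulated subunit of ribonucleotide reductase, which makes deoxynucleotides, read 36.5 and 34.3 RPKM in control against 65.1 and 61.1 RPKM after KD. The values of each condition lay close together and far from those of the other, and the log2 difference was 0.82 ± 0.17 (SE; limma, adjusted p = 0.017), the largest rise of any member.

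CENPF, a large protein of the outer kinetochore in mitosis, read 44.0 and 58.7 RPKM in control against 86.7 and 91.9 RPKM after KD. The control samples differed more from each other than the KD samples did, with no overlap between conditions, and the log2 difference was 0.80 ± 0.20 (SE; limma, adjusted p = 0.031). KIF11, the motor that pushes spindle poles apart, read 25.3 and 25.0 RPKM in control against 46.3 and 37.8 RPKM after KD. Here the KD samples were the more spread, again without overlap, and the log2 difference was 0.71 ± 0.17 (SE; limma, adjusted p = 0.032).

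The calls depend in part on single samples, on the filter and on a block for the replicate number. With no filter on low values RRM2 alone was called, against 2.87% of all genes, and with a filter at a mean of 5 RPKM, which CCNE1 did not pass, the other 3 were called, against 14.4%. Without KD replicate 2 the count was 2, RRM2 and KIF11, against 10.5% of all genes. Without KD replicate 1 the count was 4, with CDT1 in and KIF11 out, against 16.0% of all genes, and without control replicate 1 it was 3, with CENPF out, against 11.3%. Without control replicate 2 the count was 9, with RRM2, CENPF and KIF11 among them and CCNE1 not, and 23.0% of all genes were then called. TK1, lower in KD, was among the calls without control replicate 2. With the replicate number as a block the count was 19, 17 of them higher, against 50.7% of all genes. CDT1, AURKB, MKI67, TK1 and CDC25C were among these 19. Calls given elsewhere are without this block unless it is named. RRM2 passed under each of these settings.

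**Figure D2:**
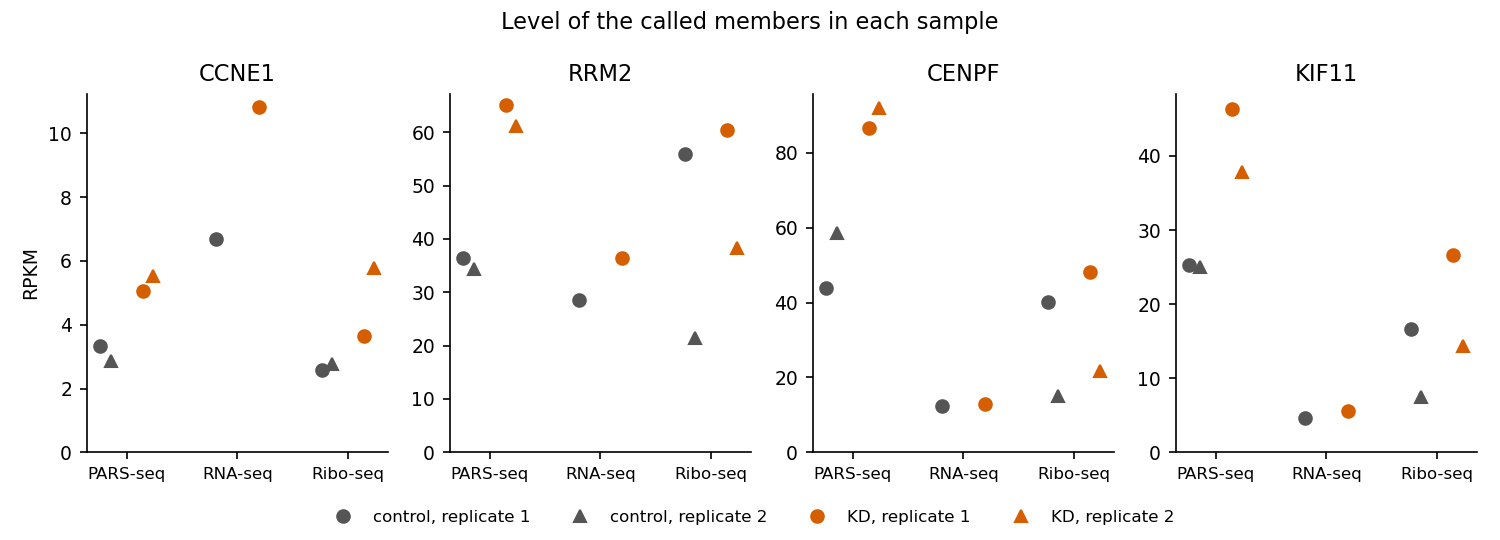
Level in RPKM of the 4 members called in PARS-seq, in each PARS-seq, RNA-seq and Ribo-seq sample, with circles for replicate 1, triangles for replicate 2, grey for control and orange for KD. In PARS-seq the KD samples of each gene lie above its control samples, as for RRM2 with 61.1 and 65.1 against 34.3 and 36.5 RPKM, and in Ribo-seq the groups overlap for RRM2, CENPF and KIF11.

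In RNA-seq, where called means past 1.5-fold between the single libraries, 1 of 37 members with a mean of at least 1 RPKM passed, or 2.70%, against 9.13% of all genes in either direction and 4.47% in the higher direction. That member was CCNE1, with 6.68 RPKM in control and 10.8 in KD. Its ratio of 1.62 had an exact 95% interval of 1.44 to 1.82 from 530 and 637 reads, the smallest whole numbers that match the ratios of its values across libraries. Reads carried no molecular identifiers, so that intervals here cover counting error only.

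The other 3 called members differed less in RNA-seq than in PARS-seq. RRM2 had 28.6 and 36.4 RPKM in control and KD, a ratio of 1.27 with an interval of 1.22 to 1.33. CENPF had 12.3 and 12.9 RPKM, a ratio of 1.05 with an interval of 1.01 to 1.09. KIF11 had 4.67 and 5.59 RPKM, a ratio of 1.20 with an interval of 1.09 to 1.31. All 3 intervals lay above 1 and below 1.5. Over the 37 members the median log2 difference in RNA-seq was −0.03, against −0.01 over all genes, with 13 members above 0 and 24 below, where 48% of all genes lay above 0.

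Because the called members lay higher together in PARS-seq, their promoters are shown, beside that of CCNB1, the mitotic cyclin that lay lower in both KD samples. The sequences are the 250 bases before the first listed start of each gene in the table of RefSeq promoters (GRCh38.p14) that was at hand, all on the + strand. Of the 40 members 32 have an entry in this table; CCND1, CCNE2, CDK2, MCM4, MCM5, AURKA, TTK and BIRC5 have none. CCNE1 lies at chr19:29811741-29811990, RRM2 at chr2:10122489-10122738, CENPF at chr1:214602945-214603194, KIF11 at chr10:92592880-92593129 and CCNB1 at chr5:69166900-69167149. Capitals mark CCAAT boxes and the CHR element TTTGAA on either strand. E2F motifs, spelled TTTCGCGC, TTTGGCGC, TTTCCCGC or TTTGCCGC on either strand, were searched as well and had 0 matches in these 5 windows. No 2 matches overlap. The motifs were chosen after the values were seen.
CCNE1: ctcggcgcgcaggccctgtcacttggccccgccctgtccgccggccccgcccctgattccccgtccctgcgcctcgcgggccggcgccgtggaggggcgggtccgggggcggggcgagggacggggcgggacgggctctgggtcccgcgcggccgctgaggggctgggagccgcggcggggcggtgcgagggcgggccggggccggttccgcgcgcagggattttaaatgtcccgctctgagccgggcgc
RRM2: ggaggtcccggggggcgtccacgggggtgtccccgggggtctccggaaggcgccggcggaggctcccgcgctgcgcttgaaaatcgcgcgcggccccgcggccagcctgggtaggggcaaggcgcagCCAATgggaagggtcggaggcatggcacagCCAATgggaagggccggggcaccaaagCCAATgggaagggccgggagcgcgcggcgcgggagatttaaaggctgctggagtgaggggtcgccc
CENPF: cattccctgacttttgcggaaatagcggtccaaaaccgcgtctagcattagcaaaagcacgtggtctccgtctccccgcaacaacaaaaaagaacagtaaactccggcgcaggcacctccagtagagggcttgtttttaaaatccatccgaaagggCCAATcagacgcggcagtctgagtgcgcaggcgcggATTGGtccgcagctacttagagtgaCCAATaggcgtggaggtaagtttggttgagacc
KIF11: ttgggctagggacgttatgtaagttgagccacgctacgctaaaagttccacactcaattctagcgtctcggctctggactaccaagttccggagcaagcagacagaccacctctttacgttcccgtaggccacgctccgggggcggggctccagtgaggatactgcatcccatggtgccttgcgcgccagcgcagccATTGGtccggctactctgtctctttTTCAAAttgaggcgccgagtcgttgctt
CCNB1: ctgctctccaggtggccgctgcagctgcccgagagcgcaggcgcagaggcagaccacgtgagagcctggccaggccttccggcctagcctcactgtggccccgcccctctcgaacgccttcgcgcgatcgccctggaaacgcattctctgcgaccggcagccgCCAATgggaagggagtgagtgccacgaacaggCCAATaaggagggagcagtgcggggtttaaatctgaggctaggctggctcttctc

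RRM2 and CENPF each hold 3 CCAAT boxes, CCNB1 holds 2, KIF11 holds 1 with a CHR element 28 bases before the start, and CCNE1 holds none of these letters. The called members thus share no motif among those searched, and CCNB1, which was not called, has the boxes too. A CCAAT box lies in the windows of 22 of the 32 members with an entry, or 68.8%, against 33.0% of 27305 promoters. A CHR element lies in 10, or 31.2%, against 13.6%, and an E2F motif in 9, or 28.1%, against 2.79%. These matches describe letters in a window and not bound sites.

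The members that open the cycle are the D-type cyclin CCND1 with its kinase CDK4, the E-type cyclins CCNE1 and CCNE2 with their kinase CDK2, the phosphatase CDC25A that activates CDK2, and E2F1. All 7 lay above 0 in PARS-seq, from 0.04 to 0.62 on the log2 scale with a median of 0.36, and 1 was called. CDK4, the most abundant over all samples, read 162 and 135 RPKM in the control samples of PARS-seq against 153 and 149 RPKM after KD. The KD values lay between the control values, and the log2 difference was 0.04 ± 0.18 (SE; limma, adjusted p = 0.92). It turned to −0.0016 when the columns were centred on their medians, which moves every gene of an assay alike. RNA-seq gave CDK4 90.1 and 87.6 RPKM in control and KD. CDC25A and E2F1 each had KD samples above both control samples in PARS-seq without being called.

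Origin licensing, the loading of helicases that marks each origin for a single use, is represented by the loaders CDC6 and CDT1, the inhibitor of CDT1 named geminin (GMNN), and the helicase subunits MCM2 to MCM7. None of the 8 with a row of their own was called by limma in PARS-seq without the replicate block. MCM2 was the 1 member at an unadjusted p under 0.05. Their median log2 difference was 0.19. MCM5, the most abundant over all samples though not in PARS-seq, read 144 and 149 RPKM in control against 143 and 172 RPKM after KD, so that the groups overlapped. CDT1 lay highest in difference with 10.1 and 17.1 RPKM in control against 14.6 and 26.6 RPKM after KD. In both conditions replicate 2 exceeded replicate 1, the groups overlapped, and the log2 difference was 0.55 ± 0.31 (SE; limma, adjusted p = 0.26). With the replicate number as a block, CDT1, MCM2 and MCM6 were called, as were 50.7% of all genes.

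CDC6 lay on the other side, with 40.9 and 34.8 RPKM in control against 31.0 and 32.7 RPKM after KD. Its groups did not overlap, yet the log2 difference of −0.24 ± 0.17 (SE; limma, adjusted p = 0.38) missed the threshold. In RNA-seq, CDC6 had 33.4 and 30.9 RPKM and CDT1 114 and 143 RPKM in control and KD. The shared row of MCM7, which also names 3 microRNA genes within it, read 76.9 and 59.3 RPKM in control against 80.5 and 80.2 RPKM after KD in PARS-seq, with 158 and 144 RPKM in RNA-seq. Its reads cannot be assigned to MCM7 alone.

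Nucleotide synthesis and the clamp hold the most abundant members. RRM1, the large subunit of ribonucleotide reductase and the partner of RRM2, read 379 and 322 RPKM in control against 392 and 385 RPKM after KD in PARS-seq. Its KD samples lay just above both control samples, with a log2 difference of 0.15 ± 0.19 (SE; limma, adjusted p = 0.62), while its partner was called. TK1, which salvages thymidine, read 53.6 and 33.5 RPKM in control against 32.8 and 34.1 RPKM after KD. The first control sample stood apart from the other 3, and the log2 difference of −0.33 ± 0.23 (SE; limma, adjusted p = 0.36) was not called. RNA-seq gave RRM1 176 and 175 RPKM and TK1 216 and 221 RPKM in control and KD.

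The mitotic cyclins and kinases had the lowest median difference of the role lists in PARS-seq and in RNA-seq. Their median log2 difference was −0.03 in PARS-seq, with 4 of 8 below 0, and −0.19 in RNA-seq, with 7 of 8 below 0. CCNB1, the B-type cyclin that starts mitosis with CDK1, read 78.5 and 93.0 RPKM in control against 66.5 and 73.4 RPKM after KD in PARS-seq. Both KD samples lay lower, with a log2 difference of −0.29 ± 0.18 (SE; limma, adjusted p = 0.31). Its RNA-seq libraries had 52.7 RPKM (control) and 39.2 RPKM (KD), the lowest ratio of any member at 0.743, with an interval of 0.708 to 0.780. This interval lies below 1, and the difference did not pass 1.5-fold.

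CDC25C, the phosphatase that activates CDK1 at the entry into mitosis, read 10.4 and 10.5 RPKM in control against 7.29 and 8.88 RPKM after KD in PARS-seq, a log2 difference of −0.33 ± 0.16 (SE; limma, adjusted p = 0.19). Its KD samples were both lower and more spread than its control samples, and RNA-seq gave 6.62 and 5.54 RPKM. AURKB, the kinase that corrects faulty attachments of chromosomes, read 19.8 and 29.3 RPKM in control against 23.9 and 39.0 RPKM after KD. As for CDT1, replicate 2 was higher than replicate 1 in both conditions, and the log2 difference was 0.33 ± 0.27 (SE; limma, adjusted p = 0.43). In RNA-seq AURKB had 77.9 and 74.3 RPKM.

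The spindle checkpoint, centromere and motor genes had the highest median log2 difference of the role lists, 0.44, and all 8 with their own row lay above 0. Besides CENPF and KIF11, none was called by limma, and CENPA alone of the others had an unadjusted p under 0.05, of 0.024. CDC20, the activator of the complex that ends metaphase and the most abundant of them over all samples, read 29.9 and 39.9 RPKM in control against 33.8 and 50.0 RPKM after KD. The groups overlapped, with a log2 difference of 0.24 ± 0.23 (SE; limma, adjusted p = 0.51), and RNA-seq gave 119 RPKM in both conditions. The row that BUB1B shares with PAK6 read 6.90 and 8.26 RPKM in control against 9.94 and 10.9 RPKM after KD, and 9.56 and 8.06 RPKM in RNA-seq.

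The proliferation marker MKI67, which coats mitotic chromosomes, read 19.3 and 29.7 RPKM in control against 30.2 and 36.5 RPKM after KD in PARS-seq. Its KD samples lay above both control samples, the lower of them by a small margin, with a log2 difference of 0.46 ± 0.23 (SE; limma, adjusted p = 0.21). RNA-seq had 21.2 RPKM in control and 18.8 in KD, on the other side of 0. TOP2A, which untangles replicated DNA, read 56.2 and 54.0 RPKM in control against 66.1 and 57.8 RPKM after KD, a log2 difference of 0.16 ± 0.17 (SE; limma, adjusted p = 0.55), with 29.8 and 26.3 RPKM in RNA-seq. For both genes the difference was above 0 in PARS-seq and below 0 in RNA-seq, and no test compares these assays.

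Ribo-seq asks whether the ribosome-bound RNA of the members changed. No member was called by limma, and none reached an unadjusted p under 0.05, over 10882 genes of which 0% were called and 43 (0.395%) reached that p. The siRNA target ADAR was not called in Ribo-seq either, with a log2 difference of −1.26 ± 0.82 (SE; limma, unadjusted p = 0.18). Both KD libraries lay above both control libraries in 3 members, CCNE1, CDC25A and CENPA, or 7.89%, against 10.7% of all genes. Both lay below in 0 members, against 7.12% of all genes. The test of the difference between the Ribo-seq and the PARS-seq effect, limma's interaction contrast over 11228 genes, called 0% of all genes and 0 members, with 207 genes (1.84%) and 0 members at an unadjusted p under 0.05.

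The replicates of Ribo-seq stood apart for these genes in both conditions. The 38 members summed to 3740 RPKM in control replicate 1 and 1217 RPKM in control replicate 2, and to 3799 and 1912 RPKM in KD replicates 1 and 2. The median ratio of replicate 1 over replicate 2 was 2.92 in control and 2.03 in KD, against 1.18 and 1.07 over all genes tested. In each condition 35 of 38 members were higher in replicate 1, against 58.8% of all genes in control and 54.6% in KD. The gap between replicates was thus larger than the gap between conditions, and the SE of the Ribo-seq differences is wide for most members.

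Single members show the same order. CCNB1 had 205 and 35.1 RPKM in Ribo-seq control and 172 and 64.7 RPKM in KD, with 443 and 253 reads in control and 525 and 337 in KD. RRM1 had 789 and 199 RPKM in control and 801 and 359 RPKM in KD. RRM2 had 55.9 and 21.4 RPKM in control and 60.3 and 38.3 RPKM in KD. In all 3, both replicate 1 values lay above both replicate 2 values, and within replicate 2 the KD library was the higher.

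Some members departed from this order. E2F1 had 5.21 and 29.1 RPKM in control and 5.80 and 14.6 RPKM in KD, with replicate 2 the higher in both. CCNE1 had 2.58 and 2.78 RPKM in control and 3.66 and 5.77 RPKM in KD, from 5 and 18 reads in control and 10 and 27 in KD. CDT1 had 37.9 and 43.8 RPKM in control and 43.4 and 41.2 RPKM in KD. For CCNE1 the counting error at this depth is large, and its log2 difference of 0.61 ± 0.42 (SE; limma, unadjusted p = 0.20) was not called. That of CDT1, 0.05, turned to −0.0080 when the columns were centred, which moves every gene of an assay alike.

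Of the members whose values in every sample are given here, the remaining ones followed the order of CCNB1, apart from MKI67. Members not given here, such as CCND1 and BIRC5, did not all follow it. In Ribo-seq control and then KD, CDK4 had 63.7 and 31.7, then 73.6 and 49.6 RPKM, and MCM5 had 192 and 64.8, then 176 and 86.6 RPKM. CDC6 had 56.6 and 11.7, then 60.6 and 20.4 RPKM, and TK1 had 193 and 65.7, then 190 and 79.5 RPKM. In each of these 4 the lower value of a condition was replicate 2 and the KD value of replicate 2 exceeded the control value of replicate 2. CDC20 had 91.8 and 35.2, then 89.7 and 47.2 RPKM, and CENPF had 40.1 and 14.9, then 48.1 and 21.8 RPKM. KIF11 had 16.6 and 7.53, then 26.6 and 14.3 RPKM, and AURKB had 84.5 and 21.2, then 65.7 and 30.3 RPKM. These 4 kept that order too. TOP2A had 104 and 25.8, then 107 and 40.2 RPKM. CDC25C had 12.3 and 2.56, then 7.07 and 3.15 RPKM, and MKI67 had 21.3 and 9.92, then 21.8 and 8.02 RPKM. MKI67 was the exception among them, since its KD value of replicate 2 was the lowest of its 4.

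**Figure D3:**
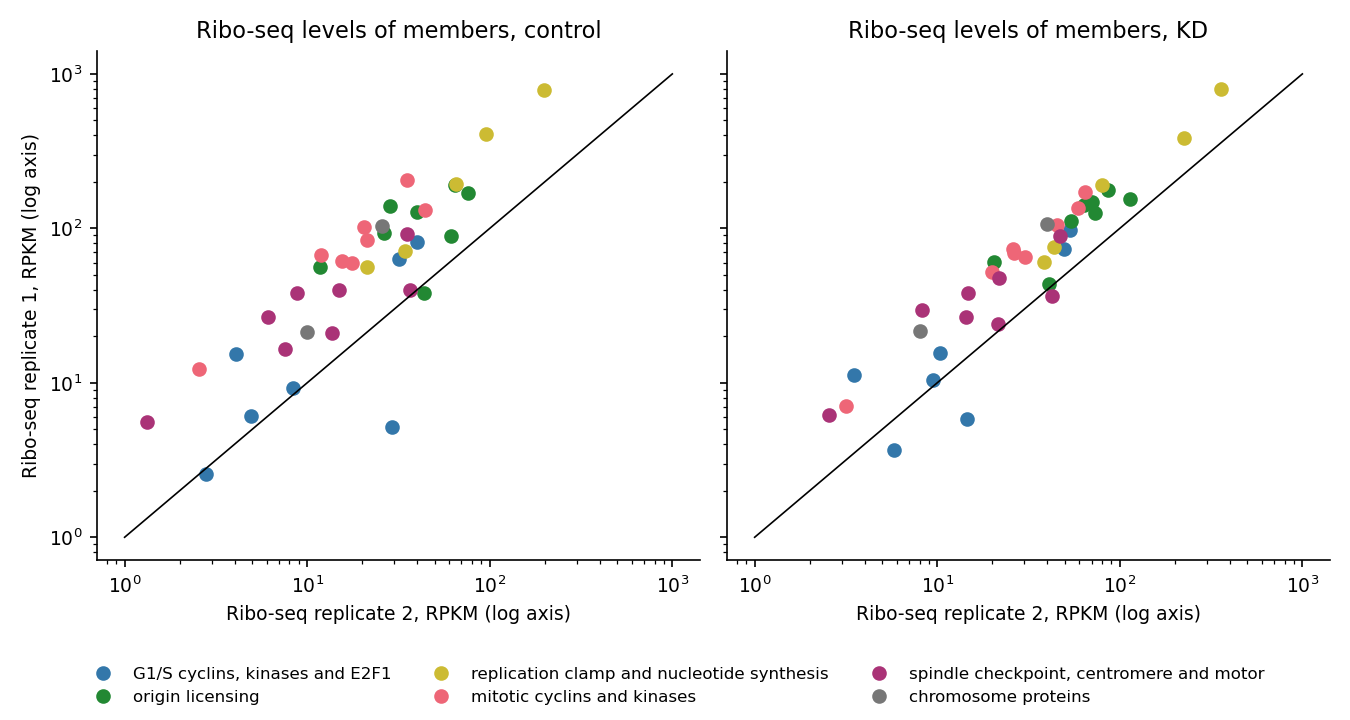
Ribo-seq level of each of the 38 members with its own row in replicate 2 (horizontal) and replicate 1 (vertical), both in RPKM on log axes, for control (left) and KD (right), coloured by role, with the line of equal values. In each condition 35 of 38 members lie above the line, with a median ratio of 2.92 in control and 2.03 in KD.

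Within replicate 1 the members' median log2 difference of KD minus control was 0.09, with 27 of 38 above 0, and within replicate 2 it was 0.60, with 34 of 38 above 0. Over all genes the same medians were −0.02 and 0.16, with 47.1% and 61.6% above 0. The members' overall Ribo-seq median was 0.34, against 0.08 over all genes, and the larger of the replicate differences was that of replicate 2. In that replicate the siRNA target ADAR stood at 0.794 times its control value in KD, against 0.200 times in replicate 1. By role, the median in replicate 2 ran from 0.17 for the 2 chromosome proteins to 0.81 for the clamp and nucleotide synthesis. The G1/S list had the replicates closest, with a median ratio of 1.20 in control, and the mitotic cyclins and kinases had them farthest apart at 3.83. Depth and the fibroblast marker LUM also differed between the Ribo-seq replicates. For a gene of given length, 1 read was worth 40.9 and 12.3 times its RPKM value in RNA-seq control in the control libraries of replicates 1 and 2, and 29.0 and 16.9 times in the KD libraries. The part of depth, of other cells or of the target's level in these differences was not tested.

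The ratio of Ribo-seq to RNA-seq, a measure of how densely a message is held by ribosomes, was taken as log2((Ribo-seq + 1)/(RNA-seq + 1)) for the 37 members with at least 1 RPKM in each RNA-seq library. The members' median was 0.44 and −0.85 in replicates 1 and 2 of control and 0.30 and −0.42 in those of KD, against −0.40 and −0.63, then −0.39 and −0.46, over 9983 genes. Replicate 1 thus put the members above the median gene in both conditions, and replicate 2 put them below it in control and near it in KD. The KD minus control difference had a median of 0.28, against 0.09 over all genes, and 32 of 37 members lay above 0, or 86.5%, against 59.6% of all genes. Both ratios of a condition share 1 RNA-seq library, and no test was made. The sign rests on single libraries: the median was −0.40 without control replicate 2 and −0.18 without KD replicate 1.

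Among these members, the highest ratio in a single library was that of CDK1, at 2.76 and 0.36 in control and 2.97 and 1.61 in KD. CDK1 is the kinase that drives mitosis, and its RNA-seq level was low, at 9.11 and 8.00 RPKM. The lowest ratio in a single library was that of E2F1, at −2.88 and −0.60 in control and −2.96 and −1.76 in KD. The order of these 2 genes was the same in all 4 libraries, whose ratios share 1 RNA-seq library per condition. In control, the log2 level in PARS-seq minus that in RNA-seq was 2.68 for CDK1 and −2.34 for E2F1. The part of the RNA-seq level in the order of these ratios was not tested.

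The assays ranked the members differently, and the GC content of the transcripts moved with that difference. TTK, a checkpoint kinase, had 74.3 and 142 RPKM in the control samples of PARS-seq but 3.85 RPKM in RNA-seq, whereas CDT1 had 10.1 and 17.1 RPKM in PARS-seq but 114 RPKM in RNA-seq. The annotated transcript of TTK has 36.4% GC and that of CDT1 64.3%. Across the 38 members, the log2 level in PARS-seq minus that in RNA-seq in control had a Pearson correlation of −0.85 and a Spearman correlation of −0.82 with transcript GC. Over the 8908 genes with a mean of at least 1 RPKM and an annotated coding transcript the correlations were −0.74 and −0.78. The genes share libraries and are not independent replicates, so that these values describe the libraries.

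The 10 members lowest in GC, up to 42.1%, had a median difference between the assays of 1.41, and the 10 highest, from 51.8%, had −1.91. The part of composition in the difference between the assays was not tested. The KD minus control difference in PARS-seq had little relation to GC over the members, with a Pearson correlation of 0.04 and a Spearman correlation of 0.05, against 0.14 and 0.16 over all genes. With transcript length it had a Pearson correlation of 0.35 and a Spearman correlation of 0.38 over the members, against 0.11 and 0.15 over all genes, and the part of length in the difference was not tested. Of the called members, CCNE1 has 51.7% GC, RRM2 42.1%, CENPF 40.8% and KIF11 39.3%. Their annotated transcripts have 1954, 3258, 10290 and 5016 bases, in that order. MKI67, CENPE and TOP2A, which were not called, have 12716, 8541 and 5695 bases. PARS-seq replicate 2 minus replicate 1 had a Pearson correlation with GC of 0.06 in control and 0.61 in KD over the members, against 0.27 and 0.51 over all genes. Ribo-seq replicate 2 minus replicate 1 had a Pearson correlation with GC of 0.59 in control and 0.46 in KD over the members, against 0.31 and 0.14 over all genes. In control the 10 members lowest in GC had a median of −1.81 and the 10 highest −1.17, and the medians of all genes in steps of 2 percentage points ran from −0.67 at 38 to 40% up to 0.68 at 66 to 68%. The part of composition in these gaps was not tested. GC and length were brought in after the values were seen.

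**Figure D4:**
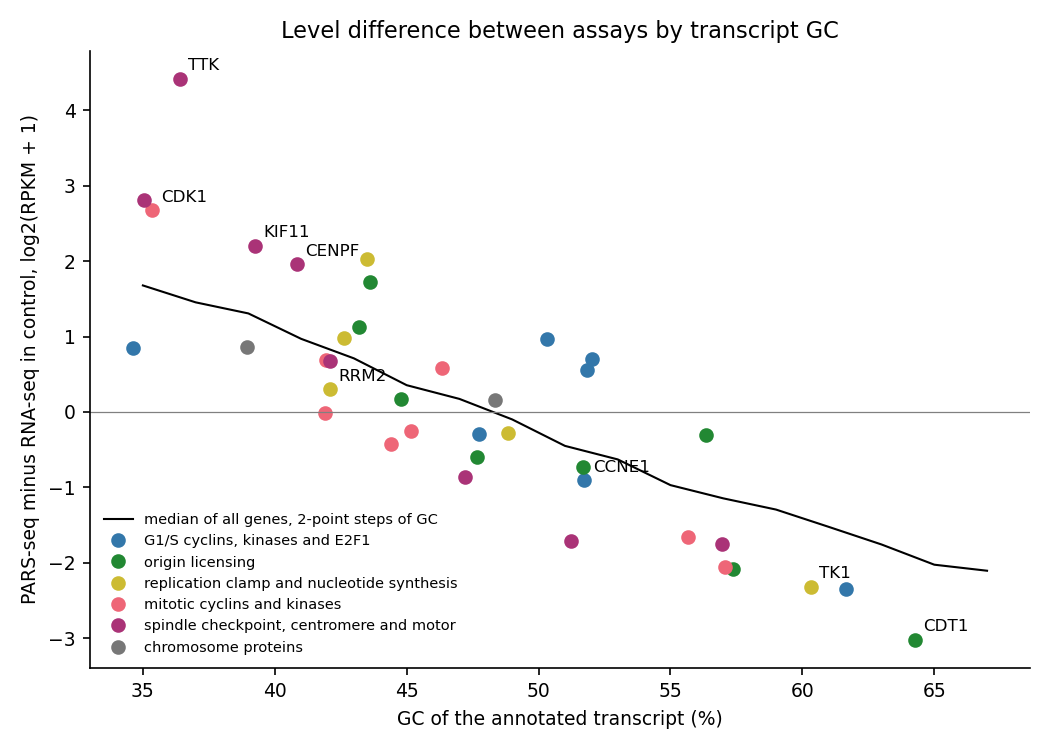
Level in PARS-seq minus level in RNA-seq in control, on the log2(RPKM + 1) scale, against the GC content of 1 annotated transcript per gene, for the 38 members coloured by role, with the median of all genes in steps of 2 percentage points as a line. TTK at 36.4% GC lies at 4.42 and CDT1 at 64.3% lies at −3.02.

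In the S1 and V1 libraries taken singly, 14 members could be paired with a transcript through identifiers in a supplementary table of the study. This table is a partial copy and holds transcripts chosen by the authors for a change in structure, so that the 14 are not a sample of the members. Read starts on transcripts listed in all libraries of a nuclease summed to between 88565995 and 128149871 per S1 library, over the 4722 transcripts that S1 control replicate 1 lists, and to between 113269749 and 214576911 per V1 library, over 19639. limma called none of the 14 in S1, against 20.1% of 4721 transcripts, 18.6% lower and 1.48% higher, and 2 of the 14 had an unadjusted p under 0.05, or 14.3%, against 33.6% of all transcripts. It called none in V1, against 9.95% of 16885 transcripts, 7.90% lower and 2.05% higher, and 0 of the 14 had an unadjusted p under 0.05, against 20.7% of all transcripts. A single transcript, uc022brd.2, took 26.0 to 54.7% of the read starts, and scaling by library total put the median of all transcripts at −0.36 in S1 and −0.14 in V1. With that transcript left out of the totals, the medians were −0.0026 and 0.13, and limma called RRM2 (adjusted p = 0.0042) and KIF11 (0.0059) in S1, against 16.2% of all transcripts, and RRM2 (0.018) in V1, against 10.6%.

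RRM2, paired with uc021vdr.1 of 3284 bases, gathered 9719 and 9968 read starts from the control libraries of S1 against 16952 and 11411 after KD. In V1 it had 9788 and 7435 against 21137 and 15504. KD libraries lay above control libraries with both nucleases in these unscaled counts. Unscaled counts also follow library depth, which was highest in KD replicate 1 with each nuclease, at 128149871 read starts in S1 and 214576911 in V1. Relative to the median transcript, the log2 difference was 0.89 in S1 and 0.73 in V1. KIF11, paired with uc001kic.3 of 5101 bases, gathered 11232 and 10865 read starts from the control libraries of S1 against 19452 and 11995 after KD, and 6938 and 6113 against 15734 and 9154 in V1. Relative to the median transcript its log2 difference was 0.86 in S1 and 0.52 in V1. Both members called in PARS-seq that could be paired therefore lay above the median transcript with each nuclease. So did all other paired members but CDC6 and PCNA in S1, and all but CDC6, MCM3, PCNA and CDK1 in V1. These libraries are the ones the PARS-seq values were averaged from.

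The genes around the members were taken from 3 further lists, beside 8.06% of all genes called higher, 7.43% called lower and 15.5% in either direction. Of 33 other replication factors, 31 have their own row, and 3 were called higher and 2 lower in PARS-seq. Of 40 other mitotic genes, 38 have their own row, and 4 were called higher and 0 lower. Of 20 cell cycle inhibitors and checkpoint genes, 2 were called higher and 3 lower. Their median log2 differences were 0.06, 0.24 and −0.16, in that order, so that the mitotic list lay near the members' 0.22 and the inhibitors on the other side of 0.

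The largest fall was that of CDKN1A, which encodes p21, the inhibitor that p53 induces to stop CDK2. It read 424 and 447 RPKM in the control samples of PARS-seq against 53.4 and 59.6 RPKM after KD, a log2 difference of −2.93 ± 0.18 (SE; limma, adjusted p = 1.5e-04). RNA-seq gave 172 and 55.6 RPKM in control and KD, and Ribo-seq 62.4 and 97.3 against 16.0 and 39.7 RPKM. BTG2, another antiproliferative target of p53, read 13.1 and 13.9 RPKM against 2.82 and 2.86 RPKM in PARS-seq, a log2 difference of −1.92 ± 0.15 (SE; limma, adjusted p = 3.6e-04). It had 29.9 and 12.3 RPKM in RNA-seq, and 7.78 and 11.2 against 3.15 and 4.91 RPKM in Ribo-seq. For both genes the conditions stayed apart in every assay, while neither passed in Ribo-seq (limma, unadjusted p = 0.052 for CDKN1A and 0.055 for BTG2).

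ORC3, a subunit of the complex that marks origins, read 13.2 and 10.2 RPKM against 6.56 and 5.62 RPKM after KD in PARS-seq, a log2 difference of −0.84 ± 0.18 (SE; limma, adjusted p = 0.019). RNA-seq had 5.06 and 3.71 RPKM, and in Ribo-seq, with 21.9 and 4.21 against 16.6 and 8.24 RPKM, the conditions overlapped. CDKN2D, an inhibitor of CDK4, read 2.21 and 2.74 RPKM against 4.68 and 7.24 RPKM after KD in PARS-seq, a log2 difference of 0.98 ± 0.20 (SE; limma, adjusted p = 0.016). Its Ribo-seq values rest on 5 to 23 reads per library and overlapped, with 3.53 and 4.86 against 2.50 and 6.72 RPKM, and RNA-seq had 14.1 and 17.6 RPKM.

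MCM10, which helps to start the helicase, read 9.32 and 10.6 RPKM against 16.4 and 20.4 RPKM after KD in PARS-seq, a log2 difference of 0.82 ± 0.17 (SE; limma, adjusted p = 0.020). FEN1, the nuclease that trims the flaps of lagging strand pieces, read 41.5 and 49.5 RPKM against 69.8 and 93.6 RPKM, a log2 difference of 0.82 ± 0.20 (SE; limma, adjusted p = 0.033). RNA-seq did not show either rise: MCM10 had 5.40 and 5.29 RPKM and FEN1 102 and 99.6 RPKM in control and KD. In Ribo-seq, MCM10 had 5.96 and 3.17 against 6.57 and 6.76 RPKM, and FEN1 115 and 39.7 against 109 and 56.0 RPKM. The values of FEN1 overlapped between conditions, as those of most members did, and those of MCM10 did not.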

How the data were processed

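The authors deposited RPKM for RefSeq genes, aligned to hg19 with tools that the submitters' processing notes name as cutadapt and Bowtie2, both without a version. PARS-seq columns are averages that the authors took of S1 and V1 libraries. The authors also deposited read starts for every base of UCSC transcripts, which in the files used here are whole-number counts, and these were summed per transcript. RPKM were tested as log2(RPKM + 1) after dropping genes with a mean under 1 RPKM. The test was limma 3.58.1 (R 4.3.3) with a mean trend and Benjamini-Hochberg adjustment over all genes tested. It was tested on simulated data with independent noise, no effect of the replicate number, and planted changes larger than those of the called members. Read starts were scaled by the library total over transcripts listed in all 4 libraries of a nuclease, with 0.5 added, and a transcript needed 10 read starts in 2 libraries, taken at median depth, and a total of 15. S1 control replicate 1 lists only 4722 transcripts, against 21052 to 22402 in the other 7 libraries, and every S1 total, scaling and share rests on these. RNA-seq, with 1 library per condition, has no test.

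The commonest ratio of a low gene between libraries gave relative depth, and reads per gene are the smallest whole numbers that match a gene's ratios within 0.02. RNA-seq intervals are exact (Clopper-Pearson) binomial intervals. With 2 against 2, an exact permutation test cannot go below p = 0.333. The study calls its replicates biological without saying whether they came from separate cultures, and p-values measure the spread between these samples. The members and lists were chosen with earlier results of these data known. ADAR was named as the siRNA target. Values in every sample are given for the most abundant member of each role list, its largest fall and rise in PARS-seq, and members called in PARS-seq or Ribo-seq or past 1.5-fold in RNA-seq, and for the 3 largest falls and rises called among other genes. Other members named for single values were picked after these were seen. GC and length come from the GENCODE canonical coding transcript. Python 3.11.15 was used with numpy 2.4.6, pandas 2.3.3, scipy 1.17.1 and matplotlib 3.10.9. Alternatives covered the pseudocount, the filter, centring, scaling, the replicate block and leaving out each replicate.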

Additional observations from a re-analysis of the deposited data

How the results depend on the processing

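The counts of called members in Ribo-seq and in the contrast of Ribo-seq with PARS-seq were 0 by limma under each alternative, and the RNA-seq count was 1 under each. In PARS-seq, 4 members were called, 1 with no filter on low values (2.87% of all genes), and 2 to 9 when each replicate was left out in turn, where the remaining sample of an arm is assumed to vary like the other arm. With the replicate number as a block, 19 members were called in PARS-seq, 17 of them higher and CDT1, AURKB, MKI67, TK1 and CDC25C among the 19, while 50.7% of all genes were called. The labels do not say what samples of one replicate number share, while the study's structure index compares control and KD samples of the same number. Deviations of same-numbered samples had a correlation of 0.66 in PARS-seq and 0.81 in Ribo-seq. The fit without the block counts such shared deviations as error, so that a member not called there is not shown to be unchanged. With the block limma called 143 genes (1.31%) and 0 members in Ribo-seq, and 0 members in S1 and in V1, and the contrast of Ribo-seq with PARS-seq was not fitted with it.

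In the S1 libraries, 0 members were called (20.1% of all transcripts), 2 with the library total without the most covered transcript (16.2%), 2 with scaling by the median ratio (15.5%), and 0 to 1 when each replicate was left out (CDC6, lower, without control replicate 2, with 38.8% of all transcripts). In V1, 0 were called (9.95%), and the same scalings gave 1 (10.6%) and 1 (10.4%). The median Ribo-seq to RNA-seq difference of 0.28 ran from −0.40 to 0.98 when each Ribo-seq library was left out, and was −0.40 without control replicate 2 and −0.18 without KD replicate 1. Of 96 values of single genes under another pseudocount or centring, 91 kept their sign. The other 5, all near 0 and all after centring, were CDK4 in PARS-seq at −0.0016, CDT1 in Ribo-seq at −0.0080, and in RNA-seq MCM5 at 0.0014, RRM1 at 0.0019 and CDC20 at 0.0056. Centring moves every gene of an assay by the same amount, so that only values nearer 0 than that amount turned. These changes of sign thus say nothing of single genes. The Ribo-seq values of low members rest on few reads, such as those of CCNE1 with 5 reads in control replicate 1.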
